A study of Mus musculus with 965 samples.

Results

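A set of 10 genes that mark neural progenitors were followed through mouse embryoid bodies, cell by cell: Sox1, Sox3, Sox21, Pax6, Pou3f2, Pou3f3 and Fabp7, which mark neural progenitors in general, and Pax3, Zic1 and Olig3, which mark the dorsal neural tube. They were taken by name from the deposited count table, where all 10 were present among 36849 genes. Embryoid bodies are aggregates that embryonic stem cells form once leukemia inhibitory factor is withdrawn, and cells of the germ layers arise in them. The stem cells were of the E14 line and were wild type (WT, 1 culture), Dnmt3a -/- (3AKO, clones 3A2 and 3A38) or Dnmt3b -/- (3BKO, clones 3B126 and 3B77), so that each knockout was seen in 2 clones and WT in 1 line. Single live cells were sorted at days 3, 6 and 8, and full-length polyadenylated RNA was amplified with Smart-seq2, without molecular identifiers. The table held 965 cells, of which 230 were WT, 363 were 3AKO and 372 were 3BKO. Clone 3A2 had no day 8 cells among those analysed here. The labels put all 3AKO cells in batch 1, WT and 3B126 in batch 2 and 3B77 in batch 3, so 3AKO and batch cannot be told apart.

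SOXB1 proteins such as Sox1 and Sox3 are high mobility group factors that hold neuroepithelial cells in a dividing progenitor state, and Sox21, a SOXB2 protein, acts against them as progenitors move towards neurons. Pax6 is a paired-domain factor of the neural tube, eye and forebrain. Pou3f2 and Pou3f3 (Brn2 and Brn1) are POU factors of progenitors and upper-layer neurons, and Fabp7 is a fatty acid binding protein of radial glia. In the neural tube, signals from the roof plate set up dorsal domains in which Pax3, the zinc finger factor Zic1 and the basic helix-loop-helix factor Olig3 are used. Pax3 and Zic1 are also used in neural crest and somites.

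In GENCODE M21 (GRCm38), Pax6 lay on chromosome 2, 105668900 to 105697364, plus strand, with 16 exon blocks, and Pax3 on chromosome 1, 78101267 to 78197134, minus strand, with 9. Zic1 (chromosome 9, 91358058 to 91365810, minus strand) overlapped Zic4 on the opposite strand, Pax6 overlapped Pax6os1 and Sox21 overlapped Gm4675, each on the opposite strand. Sox1 (chromosome 8, 12395295 to 12400126, plus strand) lay inside the non-coding gene Sox1ot on the same strand. It also overlapped Gm25239, and Pou3f3 overlapped AC122898.1, each on the same strand. Smart-seq2 does not keep strand, so reads of Zic1, Pax6 and Sox21 cannot be separated from those of the opposite gene where exons overlap. Sox1, Sox3, Sox21, Olig3, Pou3f2 and Pou3f3 each had 1 exon block. Sox3 lay on chromosome X, 60891366 to 60893430, minus strand. Sox21 lay on chromosome 14, 118233232 to 118237030, minus strand, Olig3 on chromosome 10, 19356533 to 19358604, plus strand, Pou3f2 on chromosome 4, 22482780 to 22488366, minus strand, Pou3f3 on chromosome 1, 42695768 to 42703176, plus strand, and Fabp7 on chromosome 10, 57784881 to 57788450, plus strand.

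The knockout cells lacked a de novo DNA methyltransferase, whose substrate is the CG dinucleotide, so the CG content of the members' promoters is shown. RefSeq (GRCm38.p6) gave promoters for 8 of the 10 members, 9 windows in all, since Pax6 had 2; Pax3 and Sox3 had no entry. In the 250 bases before the start site the members' windows held from 4 CG (Fabp7 and Olig3) to 29 (Sox1), with a median of 15, and the median over 32851 windows was 6. Zic1 held 27, Pou3f2 18, Sox21 17, and Pou3f3 and each Pax6 window 15. Windows with at least 15 CG made up 27.3% of all windows, and those with at least 27 made up 8.56%. Pax6 was read in cells of every clone at day 3, and Pou3f2, Pou3f3 and Sox21 were near 0 there, so these 4 windows are printed 5′ to 3′, with each CG in capitals. They lie at chr2:105668646-105668895 (plus strand), chr4:22488367-22488616 (minus), chr1:42695518-42695767 (plus) and chr14:118237031-118237280 (minus).
Pax6: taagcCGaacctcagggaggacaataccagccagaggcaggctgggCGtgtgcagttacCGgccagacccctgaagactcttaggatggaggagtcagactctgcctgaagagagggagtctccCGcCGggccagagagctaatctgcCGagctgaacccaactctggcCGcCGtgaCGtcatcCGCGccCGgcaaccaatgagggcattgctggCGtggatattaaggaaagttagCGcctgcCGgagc
Pou3f2: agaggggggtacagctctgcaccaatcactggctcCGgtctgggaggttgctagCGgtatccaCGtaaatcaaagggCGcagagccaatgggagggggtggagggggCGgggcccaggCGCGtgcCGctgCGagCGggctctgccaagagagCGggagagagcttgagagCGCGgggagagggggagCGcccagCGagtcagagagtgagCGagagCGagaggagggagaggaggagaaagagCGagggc
Pou3f3: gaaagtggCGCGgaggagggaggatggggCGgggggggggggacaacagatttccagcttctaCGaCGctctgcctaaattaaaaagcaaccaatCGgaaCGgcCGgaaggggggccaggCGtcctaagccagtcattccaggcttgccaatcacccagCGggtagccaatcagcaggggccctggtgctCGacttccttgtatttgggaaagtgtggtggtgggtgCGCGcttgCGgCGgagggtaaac
Sox21: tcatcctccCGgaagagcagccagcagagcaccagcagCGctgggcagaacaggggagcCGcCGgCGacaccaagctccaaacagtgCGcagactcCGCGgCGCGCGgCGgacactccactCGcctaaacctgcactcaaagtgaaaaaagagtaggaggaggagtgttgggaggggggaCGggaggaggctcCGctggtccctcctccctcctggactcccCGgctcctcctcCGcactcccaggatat
The POU octamer ATGCAAAT, sought on either strand in the 300 bases from 250 before to 50 after the start, was found in 1 of the 9 windows (Sox1) and in 1.74% of all windows. The SOX core AACAAT was found in 0 of the 9 and in 10.7% of all, and the E-box CAGCTG in 0 of the 9 and in 16.3% of all.

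Cells held from 50096 to 3442378 reads, and reads summed per clone and day gave 14 sums of 9810248 to 44529830 reads. Targeting was visible at day 3, with Dnmt3a at 24.1 and 13.0 CPM (counts scaled to 1000000 reads) in 3A2 and 3A38 against 118 to 153 in the other clones. Dnmt3b was at 17.8 CPM in 3B126, 35.3 CPM in 3B77 and 239 to 285 CPM elsewhere. Some libraries stood apart. The library labelled 3B77 day 8 (40 cells) and WT plate C343 (21 cells) had 12607 and 14616 CPM of the embryonic globin Hbb-bh1, and 0 CPM of the neural and pluripotency factor Sox2, while WT plate C344 (68 cells) had 593 CPM of Hbb-bh1 and 31.9 of Sox2. 3A38 at day 6 also had 11685 CPM of Hbb-bh1, with 18.2 of Sox2. Reads of Y-linked genes were in 14 of the 40 cells labelled 3B77 day 8, but in 0 of the 79 day 3 cells and 0 of the 71 day 6 cells carrying the same clone name, and in 0 of the 68 cells of C344 against 40 of 67 WT cells at day 6. On C343 4 of 21 cells held such reads, so by this check C344 was the WT plate less like WT at day 6. In 3B126 they were in 1 of 73, 0 of 58 and 0 of 51 cells at days 3, 6 and 8. Whether either WT plate is rightly labelled was not tested. Sums at day 8 are also given for C344 alone, without a verdict on which plate is the truer WT. A sum cannot tell fewer cells of a type from less RNA per cell, which the shares of cells below address in part.

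At day 3 Pax6 stood out among the members. Scaled by TMM factors, it was at 23.7 CPM in WT, 25.6 in 3A2, 24.9 in 3A38, 7.98 in 3B126 and 17.9 in 3B77. With every cell thinned to the same 50000 reads, where 1 read equals 20 CPM, Pax6 was read in 20.3% of WT cells (15 of 74, exact 95% interval 11.8 to 31.2), 20.5% of 3B126 (11.98 to 31.6), 37.97% of 3B77 (27.3 to 49.6), 38.6% of 3A38 (27.2 to 51.0) and 44.9% of 3A2 (32.9 to 57.4). These intervals, and all others on shares of cells, cover counting error over cells only. WT and 3B126, from 1 batch, had like shares, and 3A2 had the highest.

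Sox1, the earliest of the SOXB1 genes that is specific to neural tissue, separated WT from the knockout clones at day 3. It was at 0.20 CPM in WT, and at 4.94, 9.30, 6.46 and 9.02 CPM in 3A2, 3A38, 3B126 and 3B77. No thinned WT cell of 74 held a Sox1 read, which allows a share of up to 4.05%, against 8.70% (3.26 to 18.0) of 3A2, 24.3% (14.8 to 36.0) of 3A38, 15.1% (7.77 to 25.4) of 3B126 and 24.1% (15.1 to 35.0) of 3B77. Using all reads, the share in WT was 4.05% and in the knockout clones 20.3 to 40%. WT lay below all 4 knockout clones, but edgeR's quasi-likelihood test over 24083 genes called Sox1, with 4 reads in WT, in neither comparison (3BKO against WT, log2 fold change 5.24 ± 3.09 (SE), adjusted p = 1; 3AKO against WT, 5.12 ± 3.07, adjusted p = 0.734).

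The other members were low at day 3. Sox3, which epiblast cells use as well as neural progenitors, lay between 0.57 CPM (3A2) and 3.88 CPM (3B126), but 91.3% of the reads in 3B126 came from 1 cell, without which it was at 0.213 CPM of the unscaled total. Fabp7 was at 0 in 3B126 and 0.30 CPM in WT, and at 2.33, 4.17 and 5.57 CPM in 3A2, 3A38 and 3B77, with 83.3% of the reads in 3B77 from 1 cell. Pou3f2, Pou3f3, Sox21, Pax3 and Zic1 stayed at or below 1.39 CPM in all 5 clones, and Olig3 did so in all but 3B126, at 2.14 CPM. In 3B126, 97.4% of the Olig3 reads came from 1 cell, and without it Olig3 was at 0.0325 CPM of the unscaled total.

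**Figure D1:**
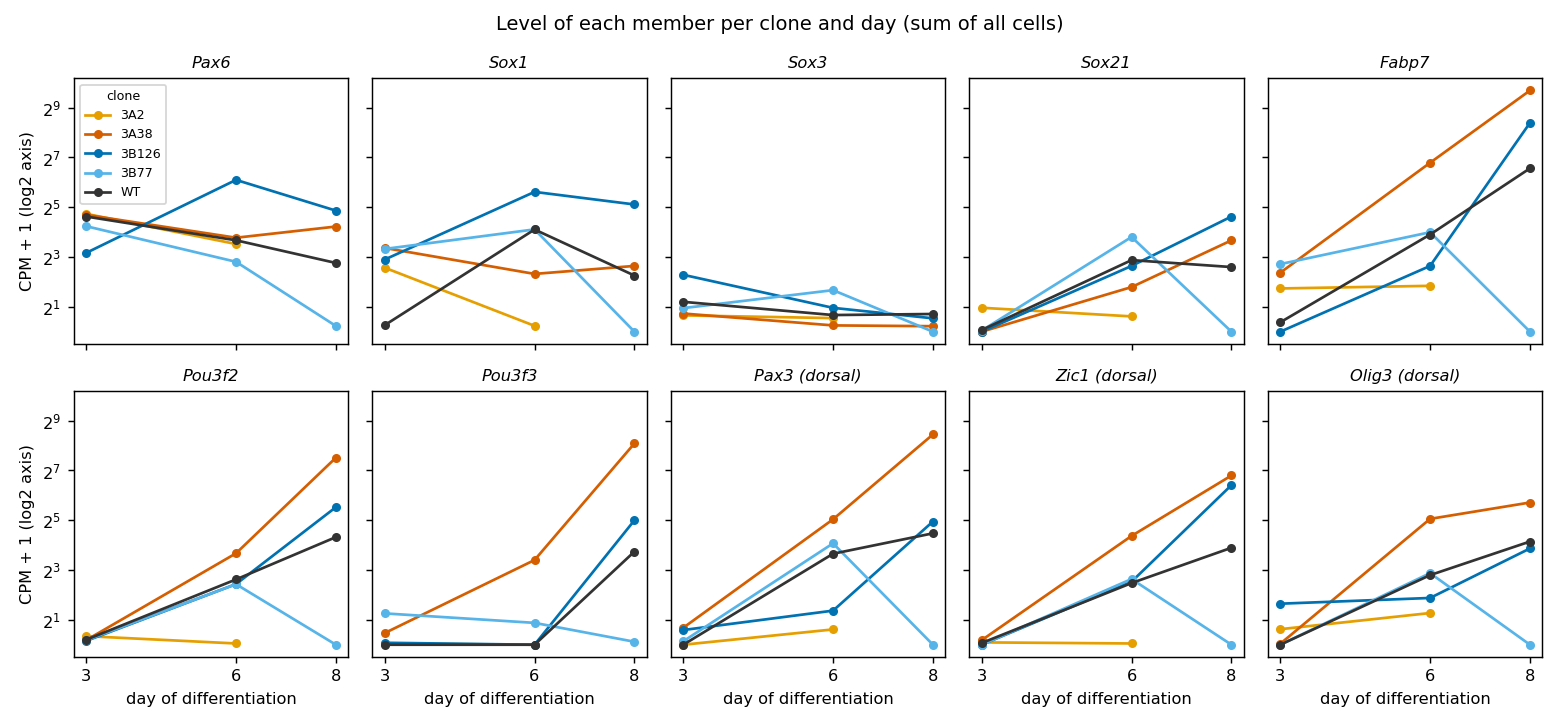
Level of each of the 10 members (vertical axis, TMM-scaled CPM plus 1, log2 axis) against day (horizontal axis) in each clone, each point being the sum of all cells of that clone and day. In 3A38, 3B126 and WT the members Fabp7, Pou3f2, Pou3f3, Pax3 and Zic1 were highest at day 8, the library labelled 3B77 day 8 was at or below 0.17 CPM of every member, and 3A2 was low at day 6.

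By day 6 the dorsal members and Fabp7 were higher than at day 3 in WT, 3A38, 3B126 and 3B77. In 3B126 Olig3 was only 1.25-fold higher, and 1 cell gave 53.5% of the Zic1, 49.3% of the Olig3 and 42.9% of the Pax3 reads. In 3A2 Fabp7 was level, and Zic1 had 1 read. Pax3 (0 to 15 reads) and Olig3 (16 to 40 reads) were higher there, with 86.7% and 92.5% of the day 6 reads from 1 cell. Pax3 was at 31.9 CPM in 3A38, 15.8 in 3B77, 11.6 in WT, 1.58 in 3B126 and 0.53 in 3A2. Zic1 was at 19.7 CPM in 3A38, 5.23 in 3B77, 4.79 in 3B126, 4.57 in WT and 0.04 in 3A2. Olig3 was at 32.3 CPM in 3A38, 6.34 in 3B77, 5.95 in WT, 2.68 in 3B126 and 1.42 in 3A2. For all 3 genes 3A38 came first and 3A2 last, so the clones of 1 genotype lay at opposite ends. In 3B77, 87.3% of the Olig3 reads came from 1 cell, and without it Olig3 fell from 8.89 to 1.16 CPM of the unscaled total.

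Fabp7 was at 109.5 CPM in 3A38 at day 6, 14.96 in 3B77, 13.96 in WT, 5.24 in 3B126 and 2.59 in 3A2. Within a clone, Fabp7 was 26.3-fold higher at day 6 than at day 3 in 3A38, 46.6-fold in WT, 2.69-fold in 3B77, at least 31.1-fold in 3B126 (floor of 3 reads in the sum with none) and 1.11-fold in 3A2. Pax3 was 52.9-fold higher in 3A38, at least 77.5-fold in WT and 3.13-fold in 3B126. In 3A2 at day 6, 10 of 80 thinned cells held Pax6 and no cell held more than 1 member.

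The SOX members and Pax6 did not follow that order at day 6. Sox1 was highest in 3B126, at 48.1 CPM and in 50% of cells (36.6 to 63.4), then 3B77 (16.3 CPM, 39.4%, 28.0 to 51.7), WT (16.2 CPM, 25.4%, 15.5 to 37.5), 3A38 (3.999 CPM, 16.7%, 8.92 to 27.3) and 3A2 (0.18 CPM, 0 of 80 cells, up to 3.75%). Sox21 was at 13.0 CPM in 3B77, 6.34 in WT, 5.24 in 3B126, 2.47 in 3A38 and 0.53 in 3A2. Pax6 was at 67.5 CPM in 3B126 against 6.003 to 12.7 in the other 4 clones.

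In 3B126 at day 6, 36.96% of the Pax6 reads came from 1 cell, and without it Pax6 was still at 34.3 CPM of the unscaled total. Sox3 lay between 0.19 CPM (3A38) and 2.18 CPM (3B77). The 2 POU genes differed at this day. Pou3f2 was at 4.39 to 5.16 CPM in 3B126, 3B77 and WT and at 11.8 CPM in 3A38. In 3B126 and WT, 96.6% and 79.0% of these reads came from 1 cell each, and without it Pou3f2 was at 0.121 and 1.12 CPM of the unscaled total. Pou3f3 had no read in any of the 58 cells of 3B126, the 67 of WT and the 80 of 3A2, and was at 0.84 CPM in 3B77 and 9.58 in 3A38.

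**Figure D2:**
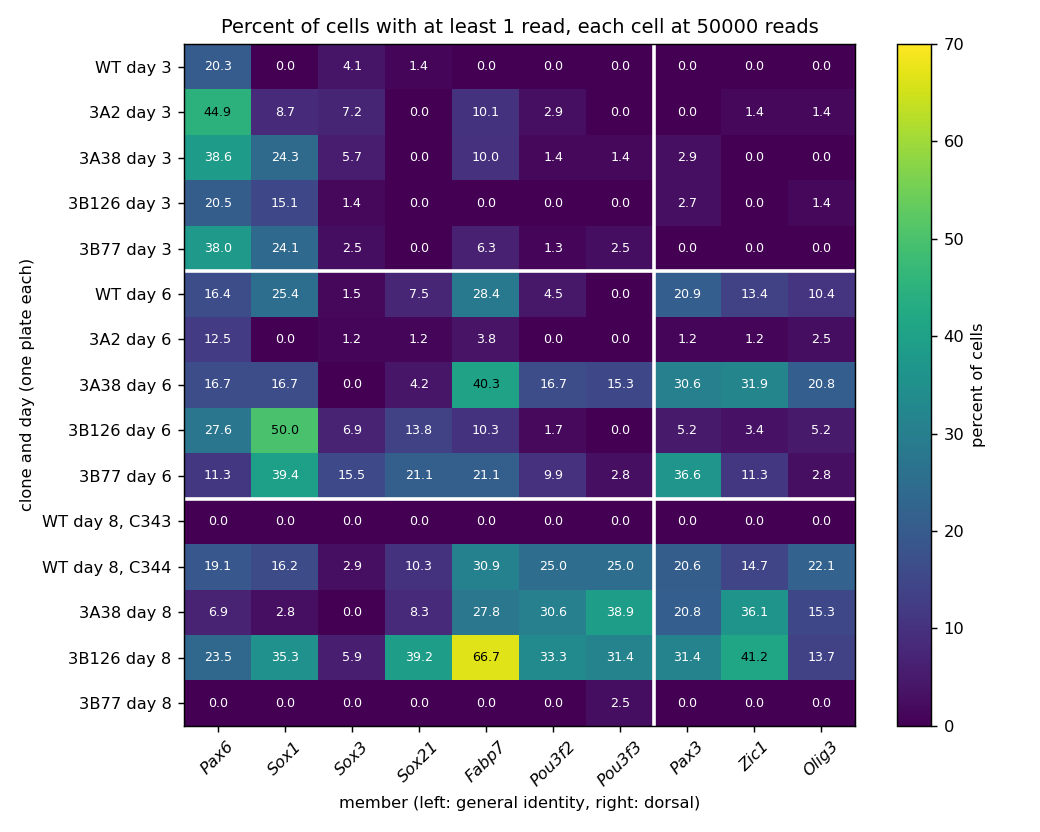
Percent of cells with at least 1 read of each member (columns) on each plate (rows, grouped by day), each cell thinned to 50000 reads, with the value printed in each box. Day 3 rows are led by Pax6, as is 3A2 at day 6, the other day 6 rows by Sox1 or Fabp7, and the rows of 3A38, 3B126 and WT plate C344 at day 8 by Pou3f3 or Fabp7.

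At day 8 the late members were at their highest in 3A38, 3B126 and WT plate C344, and nearly absent elsewhere. Fabp7 was at 825.5 CPM in 3A38, 334.8 in 3B126 and 93.6 in WT, where the WT sum joins C344 with C343, and at 0 in the library labelled 3B77 day 8. Pou3f3 was at 271.0 CPM in 3A38, 31.0 in 3B126 and 12.4 in WT, and Pou3f2 at 182.0, 45.1 and 19.0 CPM. On C343 0 of 21 cells held a read of any of the 10 members (upper limit of the share 14.3%). The 40 cells labelled 3B77 day 8 held 2 reads of Pax6, 1 of Pou3f3 and none of the rest.

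The dorsal members split by clone at day 8. Pax3 was at 348.3 CPM in 3A38, 29.9 in 3B126 and 21.3 in WT. Zic1 was at 110.4, 84.2 and 13.9 CPM, and Olig3 at 51.5, 13.6 and 16.7 CPM. C343 added no member read to the WT sums. On C344 alone, in CPM of the unscaled total, Pax3 was at 39.6, Zic1 at 25.9 and Olig3 at 31.1, against 36.9, 103.7 and 16.8 in 3B126, so that for Pax3 the order of WT and 3B126 turned. Fabp7, Pou3f2 and Pou3f3 were at 174.3, 35.4 and 23.1 CPM on C344 and at 412.7, 55.6 and 38.2 CPM in 3B126 on that scale. Of the Olig3 reads of 3B126, 57.7% came from 1 cell. In 3A38, 1 cell gave 54.5% of the Pax3 reads, and without it Pax3 fell from 283 to 132 CPM of the unscaled total. In the same clone 1 cell gave 31.1% of the Fabp7, 35.5% of the Pou3f2 and 28.8% of the Pou3f3 reads.

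For Fabp7, shares of cells at day 8 placed 3B126 first, where the sums placed 3A38 first. For Zic1 the shares also placed 3B126 first, but the order of the sums depended on the scaling. TMM-scaled Zic1 was higher in 3A38 (110.4 CPM) than in 3B126 (84.2 CPM). In CPM of the unscaled total it was higher in 3B126 (103.7) than in 3A38 (89.8). For Pou3f3 the shares, 38.9%, 31.4% and 25% in 3A38, 3B126 and C344, kept the order of the sums. Fabp7 was read in 66.7% of 3B126 cells (52.1 to 79.2), against 27.8% of 3A38 (17.9 to 39.6) and 30.9% of C344 (20.2 to 43.3). Zic1 was read in 41.2% of 3B126 (27.6 to 55.8), 36.1% of 3A38 (25.1 to 48.3) and 14.7% of C344 (7.28 to 25.4). The Zic1 intervals of 3B126 and 3A38 overlap. Among cells with a read before thinning, the median Fabp7 level was 958 CPM in 3A38, 351 in 3B126 and 374 on C344.

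Sox1 and Sox21 were most frequent in 3B126 at day 8. Sox1 was read in 35.3% of its cells (22.4 to 49.9), against 16.2% of C344 (8.36 to 27.1) and 2.78% of 3A38 (0.338 to 9.68). Sox21 was read in 39.2% (25.8 to 53.9), 10.3% (4.24 to 20.1) and 8.33% (3.12 to 17.3) of the cells of 3B126, C344 and 3A38. Pax6 was at 28.1 CPM in 3B126 and 17.7 in 3A38, where 66.0% of its reads came from 1 cell, and Sox3 stayed at or below 0.64 CPM in all 4 sums.

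Between days, the members were tested in the fit over all genes, with clones as replicates and the genotypes averaged. The p-values measure the spread between these sums, each from 1 pool of embryoid bodies per clone and day. From day 3 to day 6, 0 of the 10 members were called at an adjusted p under 0.05, against 9 of 24083 genes, or 0.0374% of all (67 genes, and 0 members, with the clone as a replicate block). From day 3 to day 8, 0 of 10 were called, against 198 genes, or 0.822% (394 genes, and 0 members, with the block). From day 6 to day 8, 0 members and 0% of genes were called (5 genes with the block). At an unadjusted p under 0.05 stood 5, 7 and 0 members and 2786, 3925 and 1347 genes in these 3 comparisons.

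The estimates were large and their errors too. The median log2 fold change of the members was 4.41 from day 3 to day 6, beside 0.11 over all genes, and 7.35 from day 3 to day 8, beside -0.01. With sums of no reads set to the floor of 3 reads, the members' medians were 3.87 and 6.19. Fabp7 had a log2 fold change of 7.38 ± 3.03 (SE) from day 3 to day 8, and was higher at day 8 in 3A38, 3B126 and WT and lower in the library labelled 3B77 day 8 (edgeR, adjusted p = 0.305). Pax6 changed by -0.81 ± 1.05 (adjusted p = 0.915) and Sox3 by -2.07 ± 1.48 (adjusted p = 0.571) over the same days. The fitted changes of Pax3, Zic1, Olig3, Sox21, Pou3f2 and Pou3f3 each rest on at least 1 genotype with at most 3 reads at day 3 and are not given.

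The calls depended on the tool, the filter on low counts and the libraries in the fit. Without clone 3A2, which leaves 3AKO with 1 clone, the members' median log2 fold change was 4.76 from day 3 to day 6 and 8.29 from day 3 to day 8. DESeq2, which ran on the same sums as the main fit, called 5 of 10 members higher at day 6 than at day 3 (Pax3, Zic1, Olig3, Sox21 and Pou3f2). At day 8 it called 7 of 10, with Fabp7 and Pou3f3 added. Of all 24083 genes it called 1428 and 2697. With no filter on low counts edgeR called 6, 7 and, from day 6 to day 8, 3 members. Of all 35661 genes it then called 808, 1555 and 200. Leaving out the library labelled 3B77 day 8, with or without plate C343, brought calls for Sox21 and Pou3f2 from day 3 to day 8. Without 3A38 at day 8, 1 gene and 0 members were called from day 3 to day 8.

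Between genotypes at a given day, 0 of 10 members were called by edgeR in any of the 6 comparisons of 3BKO or 3AKO with WT, and 0% of genes were called in each. At an unadjusted p under 0.05 stood 0 members in each, and between 341 (3AKO, day 6) and 1835 genes (3AKO, day 3). DESeq2 called Pax3 and Olig3 higher in 3BKO and in 3AKO than in WT at day 3, and Zic1 lower in 3BKO. Of all 24083 genes it called 212 in 3BKO and 705 in 3AKO at that day. The calls of members set at most 38 reads of Olig3, 22 of Pax3 and 1 of Zic1 in any sum against 0 or 1 read. The test of whether the day change differed between 3BKO and WT called 0 members and 0% of genes for day 6 and for day 8, with 0 members and 555 and 525 genes at an unadjusted p under 0.05. DESeq2 called Olig3 in each of these 2, among 81 and 69 of 24083 genes.

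Within batch 2, 3B126 and WT could be set side by side without a batch difference, with 1 sum each and no test. At day 6, 3B126 held more Sox1 (48.1 against 16.2 CPM) and Pax6 (67.5 against 11.7 CPM) and less Pax3 (1.58 against 11.6 CPM) and Fabp7 (5.24 against 13.96 CPM). The shares of cells moved likewise for Sox1 (50% against 25.4%), Pax3 (5.17%, 1.08 to 14.4, against 20.9%, 11.9 to 32.6) and Fabp7 (10.3%, 3.89 to 21.2, against 28.4%, 18.0 to 40.7). The Pax6 shares were 27.6% (16.7 to 40.9) and 16.4% (8.49 to 27.5), whose intervals overlap.

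The members met in the same cells. Of the 600 cells of days 6 and 8, 147 held Fabp7, 117 Sox1, 111 Pax3, 100 Zic1, 87 Pax6, 79 Pou3f2, 75 Pou3f3, 65 Sox21, 62 Olig3 and 22 Sox3. Fabp7 was read in 77.3% of cells with Pou3f3, 75.0% of cells with Zic1 and 74.2% of cells with Olig3. Pou3f2 and Pou3f3 shared 47 cells, 59.5% of those with Pou3f2, against 5.37% of cells without it.

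Since plates differed in their cells, pairs were also counted within plates. Pou3f3 was read in 14 of 17 cells with Pou3f2 on C344 (5.88% of the others), in 18 of 22 in 3A38 at day 8 (20% of the others) and in 9 of 17 in 3B126 at day 8 (20.6% of the others). Zic1 was read in 19 of 22 cells with Pax3 in 3A38 at day 6 (8% of the others) and in 10 of 16 in 3B126 at day 8 (31.4%), but in 6 of 26 in 3B77 at day 6 (4.44%). All 21 Zic1 cells of 3B126 and all 10 of C344 at day 8 held Fabp7.

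Sox1 and Pax6, which co-occurred in the pooled cells (31.6% of Sox1 cells held Pax6), did so unevenly. Pax6 was in 8 of 17 Sox1 cells of WT at day 6 (6% of the others) and in 6 of 12 of 3A38 (10.0%), but in 7 of 29 of 3B126 at day 6, where 31.0% of the cells without Sox1 held it, and in 3 of 28 of 3B77 (11.6% of the others). In both 3BKO clones at day 6, then, Pax6 was no more frequent in cells with Sox1 than in cells without it. Sox1 and Sox21 shared 14 of the 18 Sox1 cells of 3B126 at day 8 (18.2% of the others). Median reads before thinning of cells with at least 3 members and of the rest were close in 3A38 at day 8 (313370 and 317320) and on C344 (147458 and 158282). They were higher in the first kind in 3A38 at day 6 (306664 and 253102) and in 3B126 at day 8 (245056 and 219540). The part of depth in these pairs was not tested.

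**Figure D3:**
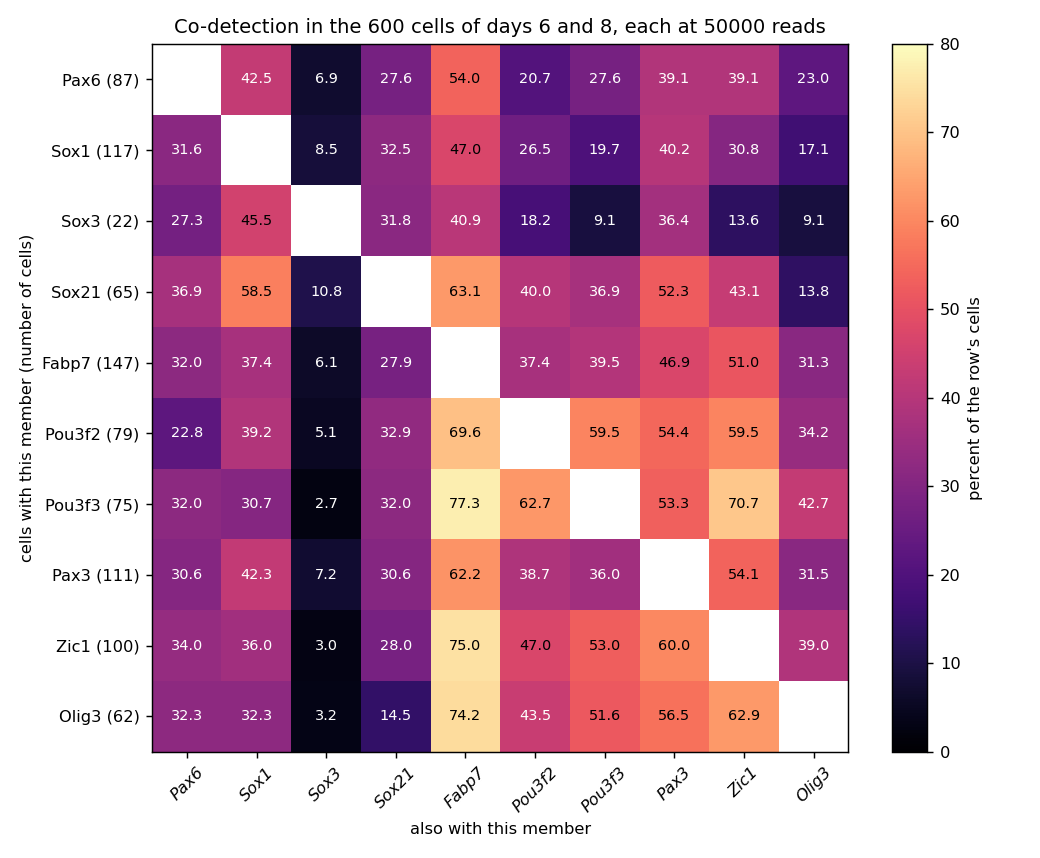
Percent of the cells with 1 member (rows, with the number of cells) that also hold another (columns), among the 600 cells of days 6 and 8 thinned to 50000 reads. The columns of Fabp7, Pax3 and Zic1 are high for the rows of Pou3f2, Pou3f3 and Olig3, and the Sox3 column is low throughout, at most 10.8%.

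To set dorsal against general identity, a cell was called general-identity when it held at least 3 of the 7 general members. At day 3 there were 2 such cells in 3A2, 3 in 3A38, 3 in 3B77 and none in WT and 3B126, and 0 of these 8 held Pax3, Zic1 or Olig3. At day 6 there were 15 of 72 cells in 3A38, 11 of 71 in 3B77, 6 of 67 in WT, 2 of 58 in 3B126 and 0 of 80 in 3A2. At day 8 there were 26 of 51 in 3B126, 16 of 68 on C344 and 13 of 72 in 3A38, and none on C343 or in the library labelled 3B77 day 8.

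On the 6 plates with at least 6 such cells at days 6 and 8, most of them held a dorsal member, while 0 of the 2 in 3B126 at day 6 did. The share was 93.3% (14 of 15, 68.1 to 99.8) in 3A38, 66.7% (4 of 6, 22.3 to 95.7) in WT and 63.6% (7 of 11, 30.8 to 89.1) in 3B77 at day 6. At day 8 it was 92.3% (12 of 13, 64.0 to 99.8) in 3A38, 88.5% (23 of 26, 69.8 to 97.6) in 3B126 and 87.5% (14 of 16, 61.7 to 98.4) on C344. The intervals of all 6 plates overlap. Over all cells of these plates the share with a dorsal member ran from 28.4% in WT at day 6 to 56.9% in 3B126 at day 8.

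The converse shares cannot be compared with those above. Any dorsal member made a cell dorsal, while the general class needed at least 3 general members. On the same 6 plates, some cells with a dorsal member held fewer than 3 general members. At day 6 they were 13 of the 27 dorsal cells in 3A38, 22 of 29 in 3B77 and 15 of 19 in WT. At day 8 they were 17 of 29 in 3A38, 6 of 29 in 3B126 and 11 of 25 on C344. Cells with a dorsal member and no general member numbered 2 in 3A38, 5 in 3B77 and 5 in WT at day 6. At day 8 they numbered 5 in 3A38, 2 in 3B126 and 3 on C344. On each of these plates, then, most cells with a dorsal member also held a general member. All 3 dorsal members together were in 12 cells of 3A38 and 3 of WT at day 6, in none of 3B77, and in 6, 5 and 3 cells of 3A38, C344 and 3B126 at day 8.

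**Figure D4:**
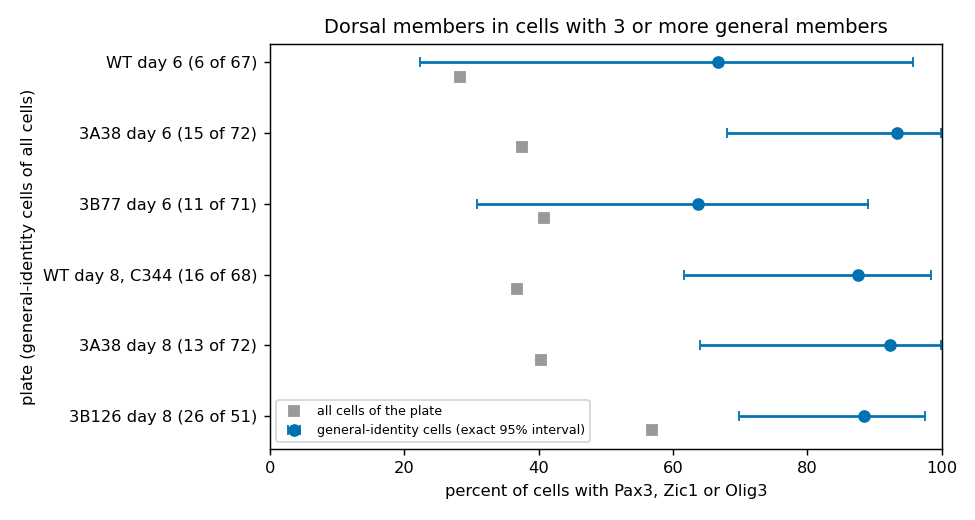
Percent of cells with Pax3, Zic1 or Olig3 (horizontal axis) on 6 plates (vertical axis), among general-identity cells (circles, exact 95% interval) and among all cells of the plate (squares). The circles lie between 63.6% and 93.3% and the squares between 28.4% and 56.9%.

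Cells with genes of other lineages gave a background of a neural read on the plates they came from. Of the 28 cells with at least 3 primitive blood genes, 0 held Sox1, Sox3, Sox21, Pou3f2, Pou3f3 or Olig3 (up to 10.7%), and 1 each held Pax6, Pax3 and Zic1. Fabp7 was in 4 of them (14.3%, 4.03 to 32.7), in 4 of 38 cells with endothelium genes (10.5%, 2.94 to 24.8) and in 5 of 76 with mesenchyme genes (6.58%, 2.17 to 14.7). At day 6 alone Fabp7 was in 22.2% of the 18 blood, 16% of the 25 endothelium and 17.4% of the 23 mesenchyme cells, and at day 8 in 0 of 10, 0 of 12 and 1 of 53. The day 6 shares of Fabp7 in 3A2 (3.75%) and 3B126 (10.3%) lay below these day 6 values and that of 3B77 (21.1%) within them. The day 6 blood, endothelium and mesenchyme cells came from 3A38 (14, 11 and 13), WT (3, 9 and 10) and 3A2 (1, 5 and 0). None came from 3B126 or 3B77, so these values set no background for those plates. Median depths of the 28 blood, 38 endothelium and 76 mesenchyme cells were 228756, 217382 and 210559 reads.

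Among cells with at least 3 neuron genes the shares of members differed by day, as they did over all cells. Of 124 such cells at day 3, 39.5% held Pax6, 17.7% Sox1 and 2.42% each Pou3f2 and Pou3f3. Of 148 at day 6, 36.5% held Sox1 and 27.0% Pax3. Of 62 at day 8, 50% held Pou3f2, 46.8% Pou3f3, 17.7% Sox1 and 12.9% Pax6. These cells came from different plates at each day, and 0 from C343 or the library labelled 3B77 day 8. At day 3 the list does not single out neurons. All 74 WT cells held at least 3 epiblast genes then, and Stmn2 was at 729.0 CPM in WT. Nor was it shown to do so at day 6. In 3A2 at that day 24 of 80 cells held at least 3 neuron genes and 68 at least 3 epiblast genes, with Stmn2 at 269.7 CPM. In 3A38 these were 16 and 2 of 72 cells, with Stmn2 at 75.5 CPM. Over all cells Pax6 was in 20.3% (WT) to 44.9% (3A2) by clone at day 3. Pou3f3 was in 25% of C344, 31.4% of 3B126 and 38.9% of 3A38 cells at day 8. A shift of neurons apart from that of all cells was not tested.

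Other genes of the field were read from the same fit. Of 12 other general progenitor genes, from day 3 to day 8 edgeR called 1 higher, Vim, an intermediate filament gene of many cell types (log2 fold change 2.85 ± 0.64, adjusted p = 0.049955), and 0 lower. Of 13 other dorsal neural tube genes tested, 0 were called, with Zic2 and Zic5 among the highest on average. Zic2 was at 400.5 CPM in WT and 687.5 in 3B126 at day 3, 15.4 and 37.4 at day 6 and 20.3 and 45.3 at day 8, while in 3B77 it was at 35.9 at day 3 and 44.0 at day 6. Of 9 intermediate and ventral genes tested 0 were called, with Irx3, Irx5 and Dbx2 highest on average. Of 17 anterior and posterior genes 1 rose, the hindbrain gene Hoxa2 (5.69 ± 1.10, adjusted p = 0.0278), and of 16 neuron genes 1, the microtubule gene Map2 (5.17 ± 1.05, adjusted p = 0.0460).

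The lists of other lineages that share Pax3 or Zic1 were read beside them. Of 8 neural crest genes 0 were called, with Tfap2a, Snai2 and Ets1 highest on average. Tfap2a was at 164.9 CPM in 3A38 at day 8, where Pax3 was also highest, while Sox10, a crest gene chosen after its values were seen, was at 0 CPM there. Of 10 somite and muscle genes edgeR called 1 higher, Foxc2 (adjusted p = 0.0203). It had 0 reads in every clone at day 3 and 2 reads in 3A38 at day 8, so its fitted change is not given. The part of crest and somite lineages in the Pax3 and Zic1 reads was not tested. Of 10 epiblast genes 1 fell, Dnmt3b itself (-5.96 ± 0.87, adjusted p = 0.00860), which is also the gene deleted in 3BKO. Of 8 mesenchyme genes edgeR called 1 higher, Pdgfra (adjusted p = 0.00289), which was also called higher at day 6 (adjusted p = 0.0153). Pdgfra had 0 reads at day 3 in 3A2, 3A38 and WT, so its fitted changes are not given. Of 8 endothelium genes, 8 primitive blood genes and 7 surface ectoderm genes 0 were called, with Emcn, Kdr and Tek, Hba-x, Hbb-bh1 and Hbb-y, and Epcam, Krt18 and Krt8 the highest of each.

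Across the 14 sums, the gene whose log2(CPM + 5) went most closely with the members' mean was Mir124-2hg, a host gene of a neuronal microRNA (Pearson r = 0.98, Spearman rho = 0.93), followed by Celsr2, Zcchc18, Caly, Fez1, Pde10a, Scg5 and Pax7 (r = 0.95 to 0.96). Pax7, a paired-box gene of the dorsal neural tube, was at 7.81 CPM in 3A38, 4.06 in 3B126 and 3.78 in WT at day 8, at most 1.25 CPM at day 6 and at most 0.03 at day 3. The points share clones, plates and batches, so these are descriptions. Per kilobase of exon, where levels of different genes can be compared, Fabp7 led the members in 3A38 at day 8 with 660.4 CPM per kilobase. Pax3 was at 56.3, with 54.5% of its reads from 1 cell, Pou3f3 at 36.6, Pou3f2 at 32.6 and Olig3 at 24.8. In WT at day 3 Pax6 led, with 2.03 CPM per kilobase.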

How the data were processed

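Full-length Smart-seq2 libraries of 965 sorted cells were analysed as the read counts that the authors deposited. The authors trimmed reads with Trim Galore 0.5.0, checked them with FastQC 0.11.2, aligned them to GRCm38 with STAR 2.7.1a and counted genes with featureCounts 1.6.1, and kept cells with at least 50000 assigned reads, 2000 genes and at most 50% mitochondrial reads. The sources used here do not state whether counting used strand. No deposited column was without a sample (0 columns).

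Counts were summed over the cells of each clone and day (14 sums, with 9810248 to 44529830 reads) and tested with edgeR 4.0.16 (filterByExpr, TMM factors, robust quasi-likelihood, groups of genotype and day, 24083 genes, Benjamini-Hochberg adjustment over all of them, threshold 0.05) in R 4.3.3. DESeq2 1.42.0, other scalings and filters, a batch term, the clone as a replicate block and left-out libraries were alternatives. Day contrasts average the genotypes that have both days. The same cell line was sampled at each day, which pairs the sums of a clone. The deviations of paired sums correlated at 0.15 in 3AKO and at most 0.06 in 3BKO. For shares of cells, each cell was thinned to 50000 reads (seed 1), and 95% Clopper-Pearson intervals were taken with scipy 1.17.1. Limits for a count of 0 use 3 counts. Reads carry no molecular identifiers, so intervals and limits cover counting error only. The edgeR step was tested on simulated data made from these sums for day 8 against day 3: with 21446 genes at the dispersion of the data (0.932), 13% of 16-fold and 94% of 256-fold changes were recovered.

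The members and gene lists were chosen with earlier results of these data known. Named genes are the 10 members, the genes of each other list called in a contrast or, with none called, its 3 highest (1 gene is not reported here), and the 8 genes most alike over the sums. Coordinates are from GENCODE M21 and promoters from RefSeq.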

Additional observations from a re-analysis of the deposited data

Results flagged for a closer look

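Sox1 moved in opposite directions between genotypes from day 3 to day 6. In the 3AKO clones the level at day 6 was 0.0359 times that at day 3 in 3A2 and 0.430 times in 3A38. In the 3BKO clones it was 7.44 times in 3B126 and 1.80 times in 3B77, and in WT it was 81.3 times, from 4 reads in the WT sum at day 3. Both 3AKO clones thus fell, and both 3BKO clones and WT rose. Sox1 was picked by screening the 10 members for opposite directions in the 2 knockouts. In shares of cells, the intervals of days 3 and 6 were apart in 3B126 and WT. They overlapped in 3A2, in 3A38 (24.3% and 16.7%) and in 3B77 (24.1% and 39.4%). The difference was not tested, and 3AKO and batch 1 cannot be told apart.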

How the results depend on the processing

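Values are numbers called, in the order day 6 against 3, 8 against 3 and 8 against 6. Of the 10 members DESeq2 called 5, 7 and 0, and edgeR with no filter on low counts 6, 7 and 3. Without the library labelled 3B77 day 8, alone or with plate C343, 2 members were called for day 8 against 3. DESeq2 called 3 members for 3BKO and 2 for 3AKO against WT at day 3, and 1 in each test of 3BKO minus WT in the day change. Leaving out 1 clone gave 0 to 6, 0 to 7 and 0 to 2 members, and 0 elsewhere.

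Of all genes, DESeq2 called 1428, 2697 and, given as higher and lower, 206 and 132. No TMM factors gave 119, 457 and 1 and 2, and no filter 808, 1555 and 150 and 50. The clone as a replicate block gave 67, 394 and 4 higher and 1 lower genes and 0 members in each, and no other call of a member changed under it. Without 3B77 day 8, day 6 against 3 gave 42 genes and day 8 against 6 gave 1 higher. Dropping plate C344 as well gave 42 and, for day 8 against 3, 796, and dropping C343 instead gave 36 for day 6 against 3 and 1 higher for day 8 against 6. WT plates kept apart gave 3 for day 6 against 3. Without 3A38 at day 8 there were 5 and, for day 8 against 3, 1. Leaving out 1 clone gave 1 to 556, 108 to 1051, and 0 to 114 higher and 0 to 12 lower genes.

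For 3BKO against WT at days 3, 6 and 8 DESeq2 called 212, 63 and 18 genes, no filter 23, 73 and 11, and the batch term 6 at day 6 and 3 at day 8. Without 3B77 day 8 there were 3 at day 6, also with either WT plate dropped, and 8 at day 8 with C344 dropped. For 3AKO these were 705, 46 and 514 by DESeq2 and 172, 27 and 87 with no filter. At day 6 there was 1 with no TMM factors and 1 without 3B77 day 8 and C344, and at day 8 there were 30 without the latter and 5 with plates apart. For 3BKO minus WT in the day change DESeq2 called 81 and 69 genes and no filter 24 and 13. Leaving out 1 clone gave 0 to 14, 0 to 53 and 0 to 5 (3BKO), 0 to 3, 0 to 12 and 0 to 55 (3AKO), and 0 to 20 and 0 to 6 (day change).

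Of the refitted log2 fold changes of members 253 kept their direction and side of the threshold, 42 passed it and 5 reversed. Leaving out 1 clone, Pax6 from day 3 to 6 ran from -1.24 to 0.32 (without 3B77; 0.20 without WT), Pou3f3 from -1.23 (without 3A38) to 1.83, and Sox1 from day 3 to 8 from -2.39 (without 3B126) to 2.62, with -1.23 without 3B77 day 8 and C344. The dorsal share of general-identity cells became 100% in 3A38 with all reads or at least 4 general members (and at day 8 with 25000 non-mitochondrial reads), 100% in WT at day 6 with at least 4 general members or at least 3 reads, and 0% in 3B77 at day 6 with at least 3 reads (1 cell). Without its top cell a member's CPM fell by over 1.5 times in 49 cases and by less in 56, counting each member and plate with at least 4 reads. The leave-outs of single day 8 libraries, the top cell, the limit of 3 reads and a second seed were chosen after seeing the data. The cause of these changes was not tested. Each arm held at most 2 clones, WT held 1, and day 8 of 3AKO rested on 1.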
